A study of Mus musculus and Homo sapiens with 12 samples.

Results

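In mouse embryonic stem cells (mES cells), 384 regions of chromatin-associated RNA carried an m5C peak in every one of 3 immunoprecipitated (IP) libraries and lay outside repeats. They were found by merging the deposited peaks of the 3 IP libraries by chromosome and strand wherever at least 1 base overlapped, which gave 35162 regions in all. Of these, 1711 held a peak of all 3 replicates. In the soft-masked GRCm38 sequence (mm10), where repeats are written in lower case, 384 of the 1711 had under 50% lower-case bases, 1245 had more, and 82 lay on unplaced scaffolds whose sequence was not matched. The last members inside the limit had 49.8% and 49.9% lower-case bases and the first ones outside it had 50.7% each, while 156 members had none. Outside repeats, a further 1246 regions held a peak of 2 replicates and 17011 a peak of 1 replicate only.

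The samples were wild-type mES cells, cultured with LIF, CHIR99021 and PD0325901 and passaged on gelatin to clear feeder cells, and the wild-type human leukaemia line K562, for which the growth label, though not the study's methods for unmodified cells, lists puromycin. Each gave 3 Input and 3 m5C-IP libraries from RNA of the chromatin fraction. Group membership followed the titles, since the antibody field reads none for IP of mES cells and lists the m5C antibody for Input of K562. No label says that replicates came from separate cultures, so p-values measure only the spread between these libraries.

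5-Methylcytosine (m5C) is a methyl mark set on RNA cytosines by the NSUN family and by TRDMT1 (DNMT2), best known from transfer RNA and ribosomal RNA. Chromatin-associated RNA holds nascent transcripts, long noncoding RNAs and transcripts of repeats. An antibody recovers fragments of roughly the peak width and does not resolve the methylated base. The median member was 200 bases wide (range 150 to 4312), and 352 members consisted of exactly 1 peak of each replicate.

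Most members were not single-copy sequence, although repeat masking had left them unmarked. This was measured by cutting each region into words of 31 bases and counting each word on chromosomes 1 to 19, X and Y. In 240 members (62.5%) fewer than 50% of the words occurred at 1 place, and these are called copied here. The remaining 144 are called single-copy. Copied sequence made up 96.0% of the shared regions in repeats, 29.6% of the regions outside repeats found in 2 replicates and 14.2% of those found in 1 replicate. The median word of a member occurred at 3 places, against 1546 places for shared regions in repeats. At least 50% of the words were shared with another member in 141 cases, which fell into 44 groups. Words were compared irrespective of strand, so members that overlap on opposite strands of 1 locus, as at Sfi1, also count here. The most numerous group had 12 members on 6 chromosomes (1, 8, 9, 14, 19 and Y), among them the widest member, 4312 bases on chromosome 1 that took in 39 peaks. Tandem repetition within a region, scored as at least 25% of words recurring inside it, was present in 30 members (7.81%) and in 2.29% of the single-replicate regions. How the aligner placed reads from several copies was not tested here, and each result below is also given for single-copy members where it moved.

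The sequences that carry these features are shown as the middle 150 bases of the member, GRCm38, 5′ to 3′ on the recorded strand, with CpG dinucleotides in capitals. The members of the first 2 lines overlap transfer RNA genes and were chosen after that overlap was known. These genes run from 171072993 to 171073064 (n-TDgtc7) and from 171037997 to 171038068 (n-TGtcc2). Only the 3′ end of the bases shown is therefore tRNA gene, and the rest lies before it. The remaining lines show members that were among the widest of their annotation class or at the extremes of C content.
Aspartate tRNA gene n-TDgtc7, chr1:171073039-171073188 (-): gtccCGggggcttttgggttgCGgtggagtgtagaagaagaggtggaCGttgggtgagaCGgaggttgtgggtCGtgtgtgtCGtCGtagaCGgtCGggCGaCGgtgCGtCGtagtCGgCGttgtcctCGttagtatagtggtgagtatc
Glycine tRNA gene n-TGtcc2, chr1:171038017-171038166 (-): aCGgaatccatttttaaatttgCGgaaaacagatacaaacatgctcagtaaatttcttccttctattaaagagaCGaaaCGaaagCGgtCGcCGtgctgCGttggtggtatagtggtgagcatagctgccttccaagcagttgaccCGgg
Widest promoter-class member, which holds leucine tRNA gene n-TLcag8 outside the bases shown, chr1:171081036-171081185 (+): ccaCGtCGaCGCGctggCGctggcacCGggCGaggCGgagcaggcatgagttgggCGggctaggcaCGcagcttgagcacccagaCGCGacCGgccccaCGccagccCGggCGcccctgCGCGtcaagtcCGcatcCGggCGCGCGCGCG
Coding exon of AW822073, chr10:58224629-58224778 (-): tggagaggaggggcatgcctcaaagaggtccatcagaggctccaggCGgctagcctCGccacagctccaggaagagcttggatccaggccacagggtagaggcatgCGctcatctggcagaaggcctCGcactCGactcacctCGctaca
Coding exon of Fam186a, chr15:99944145-99944294 (+): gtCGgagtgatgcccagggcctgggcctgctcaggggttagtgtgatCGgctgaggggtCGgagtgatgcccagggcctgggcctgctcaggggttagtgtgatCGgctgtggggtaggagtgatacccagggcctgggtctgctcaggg
Noncoding exon of Lrrc1, chr9:77532378-77532527 (-): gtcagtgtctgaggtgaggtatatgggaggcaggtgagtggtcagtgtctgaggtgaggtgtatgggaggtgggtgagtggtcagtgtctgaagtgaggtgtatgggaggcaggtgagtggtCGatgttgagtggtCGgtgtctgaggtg
Intron of Tmem245, chr4:56919368-56919517 (+): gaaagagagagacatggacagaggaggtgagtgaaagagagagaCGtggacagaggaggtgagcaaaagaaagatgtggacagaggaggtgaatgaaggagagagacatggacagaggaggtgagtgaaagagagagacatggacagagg
Intron of Ralgps2, chr1:156912072-156912221 (-): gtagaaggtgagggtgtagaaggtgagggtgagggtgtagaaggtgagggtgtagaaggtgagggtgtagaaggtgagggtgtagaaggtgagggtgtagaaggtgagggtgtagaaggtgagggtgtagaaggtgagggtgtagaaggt
Intergenic, nearest gene Rny3, chr6:47763646-47763795 (+): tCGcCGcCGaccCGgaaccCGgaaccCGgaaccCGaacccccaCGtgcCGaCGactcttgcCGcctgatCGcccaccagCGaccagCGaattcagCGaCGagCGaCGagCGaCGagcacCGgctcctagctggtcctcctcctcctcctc
Intron of Cyth3, chr5:143688909-143689058 (-): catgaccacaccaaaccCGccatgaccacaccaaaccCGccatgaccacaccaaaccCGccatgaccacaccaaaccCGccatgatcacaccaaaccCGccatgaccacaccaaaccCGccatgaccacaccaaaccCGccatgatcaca
Noncoding exon of Gm48667, within Gm49692, chr12:20196777-20196926 (+): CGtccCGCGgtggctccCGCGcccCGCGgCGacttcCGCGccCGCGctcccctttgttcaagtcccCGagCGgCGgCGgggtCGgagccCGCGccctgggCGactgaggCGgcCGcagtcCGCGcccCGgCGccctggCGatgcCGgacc
Intergenic, nearest gene Tmem125, chr4:118547785-118547934 (+): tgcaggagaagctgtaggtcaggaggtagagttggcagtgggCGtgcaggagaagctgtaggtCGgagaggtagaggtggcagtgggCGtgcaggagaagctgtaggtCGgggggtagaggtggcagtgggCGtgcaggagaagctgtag
The extremes of cytosine content were tandem arrays or CpG-dense sequence. The 3 lowest shares of C on the recorded strand were 4.43% at Ralgps2, 6.69% at Lrrc1 and 6.78% at Tmem245, all introns or exons in which a G-rich unit recurs, and between 62.7% and 64.2% of their words recurred within the region. The 3 highest were 49.5% in the member on chromosome 6 nearest to Rny3, 45.4% at Cyth3 and 44.7% at Gm48667. The Gm48667 member held 28 CpG in 150 bases, 57.6% of the words of the Cyth3 member recurred within it, and the Ralgps2 member held no CpG.

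Members fell in exons, introns and intergenic sequence, with exons at a far higher share than among the shared regions in repeats. By GENCODE M21, 73 members overlapped a coding exon, 17 an untranslated region, 53 an exon of a noncoding transcript and 103 only introns. A further 12 lay within 1000 bases before to 100 bases after a transcript start without touching a gene body, and 126 were intergenic. An exon on either strand was thus overlapped by 37.2% of members (exact 95% interval 32.4 to 42.3%, counting error only), against 3.13% of shared regions in repeats. Regions outside repeats in 2 replicates (40.5%) or 1 replicate (26.0%) overlapped exons at shares above and below that of members. Noncoding exons took 13.8% of members and 5.12% of single-replicate regions, with 42 of the 240 copied members and 11 of the 144 single-copy ones. Single-copy members overlapped an exon in 45.8% of cases and copied members in 32.1%.

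**Figure D1:**
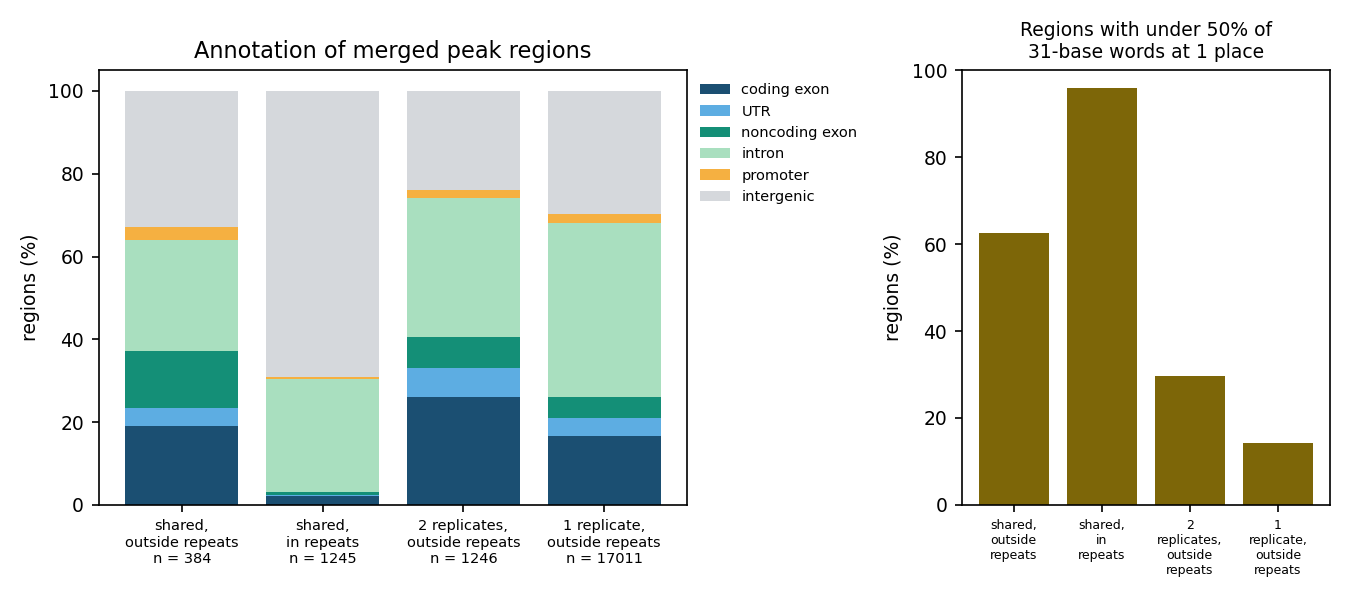
Left, the share of merged peak regions (y axis, %) in each annotation class for 4 sets of regions, from GENCODE M21. Right, the share of each set in which under 50% of the 31-base words occur at 1 place on the assembled chromosomes. Exons take 37.2% of the 384 members and 3.13% of the shared regions in repeats, and 62.5% of members are copied sequence.

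Promoter windows, on either strand and irrespective of class, held 57 members (14.8%), against 2.33% of shared regions in repeats and 6.51% of single-replicate regions outside repeats. The share was 11.4% for regions of 2 replicates outside repeats. A pair of members on opposite strands, 681 and 679 bases wide with 49 CpG each, covered the start of Sfi1, a centrin-binding protein of the centrosome, and also lay within Drg1, a GTPase. Another, 386 bases wide with 33 CpG, overlapped an untranslated region of Hoxc8, a homeobox transcription factor. In all, 75 members (19.5%) overlapped a peak region on the opposite strand, and 26 of these overlapped a shared one. Among single-replicate regions outside repeats, 2.05% overlapped a peak region on the opposite strand. The shares were 5.62% for regions of 2 replicates outside repeats and 34.0% for shared regions in repeats.

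Small structured RNAs and transfer RNA genes were held by members at one cluster and a few scattered loci. Of 430 RefSeq tRNA genes, members overlapped 8, all within the interval on chromosome 1 that runs from 171037997 to 171081315. There 9 members (2.34% of all) touched a tRNA gene for aspartate, glutamate, glycine or leucine, whereas 7 of 17011 single-replicate regions (0.0411%) and 0 of 1245 shared regions in repeats did. The recorded strand was that of the tRNA gene in 5 of the 9 cases. Of the 9 members, 8 were copied sequence. Members also covered Rmrp, the RNA of RNase MRP, the 7SL genes Rn7s1 and Rn7s2, which encode the RNA of the signal recognition particle, and the U3 genes Rnu3b2 and Rnu3b4, whose RNA guides ribosomal RNA processing.

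Members were unevenly spread along the chromosomes. Windows of 1 Mb with 5 or more members numbered 14 and held 118 members (30.7%), while 159 members were alone in their window. The tRNA window on chromosome 1 held 14 members. Windows near 85 Mb on chromosome 1, 47 Mb on chromosome 6 and 20 Mb on chromosome 8 held 13 each, all copied. The ribosomal RNA segment on chromosome 17, between 39843100 and 39848426, held 7 members, none scored as copied. That segment contains Gm26917 and Gm42418, and RefSeq lists the latter as Rn18s-rs5, a ribosomal RNA related sequence. The assembled chromosomes do not hold the full ribosomal arrays, so the word count understates its copies.

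Members were GC-rich at their centres. The median GC content was 55.7%, with quartiles of 51.0% and 62.0%, against 54.3% for regions of 2 replicates and 51.3% for regions of 1 replicate outside repeats. Shared regions in repeats had 56.4%. The peaks of the 3 replicates that lay in members had medians of 56%, 55.9% and 56%. In bins of 50 bases, mean GC was 57.0% just 3′ of the centre and fell to 49.1% and 49.3% at the outermost bins on either side. Single-replicate regions ran from 51.1% at the same bin to 46.6% at both ends.

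**Figure D2:**
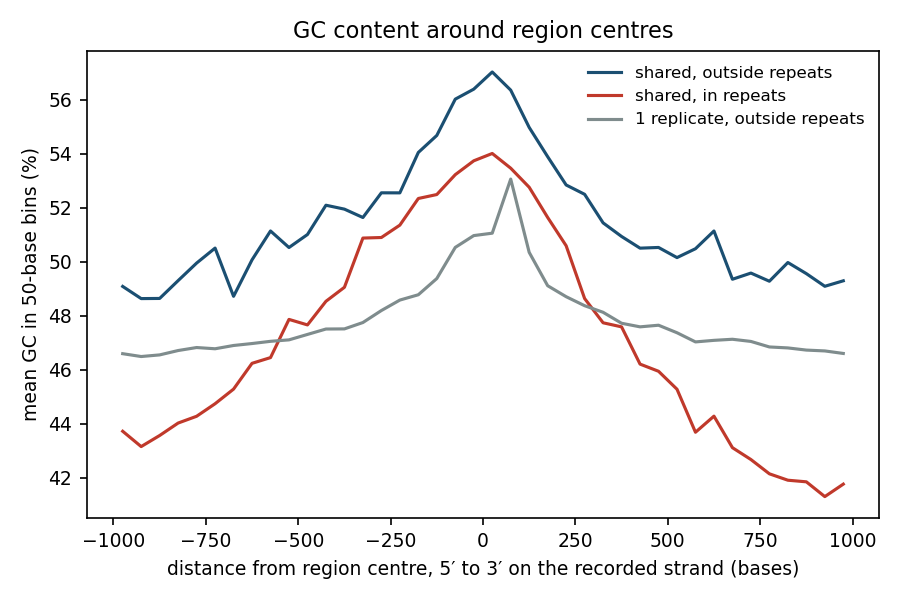
Mean GC content (y axis, %) in bins of 50 bases against distance from the region centre in bases, 5′ to 3′ on the recorded strand, for 384 members, 1245 shared regions in repeats and 17011 single-replicate regions outside repeats. Members peak at 57.0% and stay at 48.6% or more up to 1000 bases on both sides.

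CpG dinucleotides, rare in most of the mouse genome, were closer to the number that base content predicts in members than in single-replicate regions. The median ratio of observed to expected CpG was 0.53 in members, 0.44 in regions of 2 replicates and 0.33 in regions of 1 replicate. Shared regions in repeats had 0.55, so the ratio was not particular to members. Members held a median of 8.5 CpG and single-replicate regions 3, over a median width of 200 against 150 bases. A GC content of at least 50% with a ratio of at least 0.6 over at least 200 bases was met by 75 members (19.5%) and by 0.694% of single-replicate regions, few of which reach that width. Shared regions in repeats met it in 18.1% of cases and regions of 2 replicates outside repeats in 8.35%. On the recorded strand the median member had 26.0% C and 29.2% G. The values were 25.7% and 30.3% for single-copy members and 26.2% and 28.5% for copied ones. Promoter-class members had the highest median GC (66.7%), followed by untranslated regions (63.1%), coding exons (59.0%), noncoding exons (57.8%), introns (53.7%) and intergenic members (53.5%).

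Base patterns known from m5C enzymes were searched in the middle 150 bases. CNGGG, which holds the pattern of NSUN2 sites, was present on the recorded strand of 57.8% of members and on the reverse complement of 68.2%. The shares were 52.8% and 53.5% for single-replicate regions and 68.5% and 60.6% for shared regions in repeats. CTCCA, the pattern of NSUN6 sites, was present in 22.9% and 27.1% of members and in 23.4% of single-replicate regions on each strand. These are matches of letters in GC-rich sequence and not sites.

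The recorded strand of members in genes varied with the Input level of the gene. Of the 246 members in gene bodies, 125 (50.8%, exact interval 44.4 to 57.2%) lay on the strand of a gene and 121 only opposite to one. For single-copy members the share on the gene strand was 41.8% and for copied members 58.1%. Member and gene pairs with an exon overlap were then grouped by the mean Input level of the gene in CPM, its count scaled to the gene counts of the library. The gene strand was recorded in 43 of 61 pairs (70.5%) under 0.1 CPM, 17 of 29 (58.6%) from 0.1 to 1 CPM, 15 of 39 (38.5%) from 1 to 10 CPM, 4 of 18 (22.2%) from 10 to 100 CPM and 5 of 17 (29.4%) at 100 CPM or more. In single-replicate regions outside repeats the same shares were 49.8%, 48.6%, 45.0%, 23.2% and 9.59%. Opposite-strand peaks thus prevailed at genes of 10 CPM or more in both sets. Pairs that share a gene or a region are not independent. The lowest bin includes Rmrp and the U3 genes Rnu3b2 and Rnu3b4, each entered under a pair of overlapping annotations and listed at 0. Their level of 0 may therefore not reflect the RNA present. The same may hold for other genes nested on the strand of another, of which 0.156% of 5114 had any Input count. How far the share in this bin rests on such zeros was not tested. The strand on which the peak caller reported a peak was not checked against reads here.

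**Figure D3:**
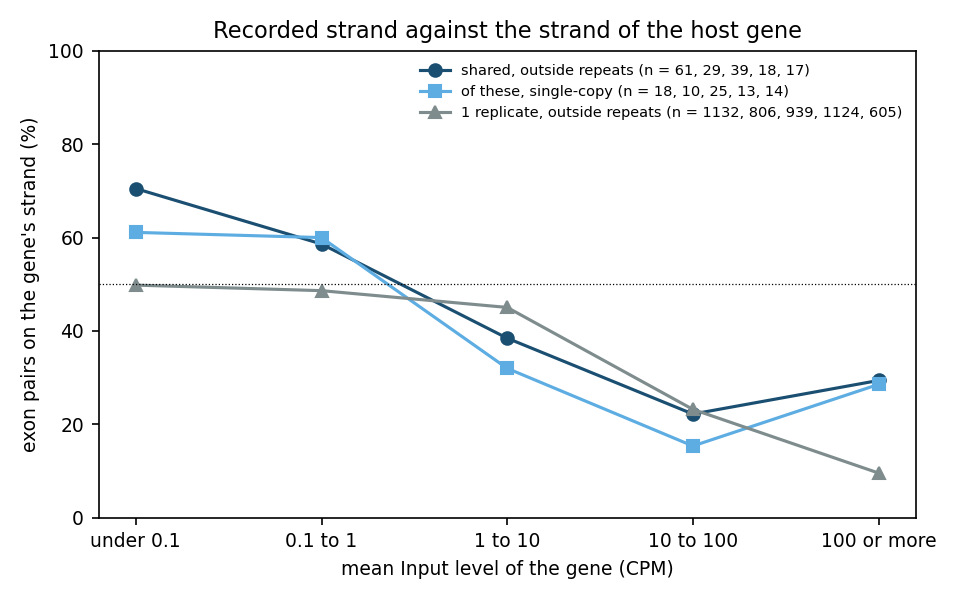
Share of region and gene pairs with an exon overlap that have the gene's strand recorded (y axis, %) against the mean Input level of the gene in CPM, for members, single-copy members and single-replicate regions outside repeats. The number of pairs in each bin stands in the legend, and the dotted line marks equal shares. Members run from 70.5% at genes under 0.1 CPM to 22.2% and 29.4% in the last bins.

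The gene counts behind the following values differ widely in depth, and in such bulk samples fewer cells of a type and less RNA per cell cannot be told apart. Counts in genes ranged from 29007088 to 34752646 per mESC Input library and from 473398 to 592324 per mESC IP library, and in K562 from 10477119 to 11865285 for Input and from 93110 to 111286 for IP. Of all counted lines, 26.8 to 27.0% in mESC IP and 6.35 to 6.66% in mESC Input were set aside as not uniquely aligned, and 43.5 to 43.9% against 9.62 to 9.68% lay outside genes. Gene counts therefore hold uniquely aligned reads only, and reads of copied members that aligned to several places are not in them. Of the 10 mES cell markers, 9 reached 1 CPM in Input, with summed levels of 2353 to 2387 CPM, against 53.7 to 55.9 CPM for 7 feeder fibroblast markers, of which Col1a1 was the highest. In K562 Input, 6 of 8 K562 markers reached 1 CPM and summed to 629 to 651 CPM, against 3.53 to 5.12 CPM for 6 markers of other blood cells. In K562 the Input libraries differed by about the sampling noise (chi-square over its degrees of freedom of 0.904, 0.916 and 1.05 for the 3 pairs), whereas pairs of mESC libraries gave 2.06 to 3.77.

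Host genes, defined as genes whose body a member overlaps on either strand, numbered 253 and ranged from genes listed at 0 to the most counted ones. Protein-coding genes made up 179 of them, with 17 lincRNAs, 16 processed pseudogenes, 9 antisense RNAs and 6 entries for small nucleolar RNAs. Of the 252 in the count tables, 48 had no count in the Input libraries, 112 were under 1 CPM and 92 were at 10 CPM or more. As above, a listed 0 may not reflect the RNA present where annotations overlap on the same strand. Members were not found in any gene of the fixed lists for the RNA m5C pathway (15 genes), PR-DUB and MBD proteins (16), Polycomb (29), H3K9 silencing (13) or replication-dependent histones. With 252 hosts among 54446 genes in the count tables, the absence of hosts from lists this short says little about the listed genes. From the other lists, hosts were Airn (22 chromatin lncRNAs), Gnas and Igf2r (23 imprinted genes), Rps10-ps1 among ribosomal protein names, and Zfp853 and Zfp960 among zinc fingers.

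In mES cells, IP against Input of the host genes is a description, because the peaks were called in the same IP libraries. The question is how much of the signal at members is visible at the level of whole genes. The edgeR quasi-likelihood test with Benjamini-Hochberg adjustment could be run on 184 hosts. Higher in IP were 102 hosts (55.4%) and lower were 46 (25%), against 39.9% and 42.0% of all 20244 genes tested. With library totals in place of trimmed-mean scaling, 134 hosts (72.8%) were higher and 12 (6.52%) lower. The median log2 difference was 1.46 for hosts and -0.17 for all genes. Much of the background follows the Input level. Among genes of at least 1 CPM in Input, 58 of 140 hosts (41.4%) were higher and 46 (32.9%) lower, against 19.7% and 58.2% of all such genes. Among genes under 1 CPM, 44 of 44 hosts passed as higher, against 91.6% of all such genes, and 0.669% of all such genes were lower. Genes under 1 CPM pass the filter largely through counts in the IP libraries, so the count of 44 hosts could hardly come out otherwise. The 106 tested hosts of single-copy members gave 62 higher (58.5%) and 24 lower (22.6%). The shares also differed by strand and position, but these groups were not matched for Input level. Of all member and gene pairs, 61.3% under 0.1 CPM and 29.2% from 10 to 100 CPM had the gene's strand recorded. A strand difference apart from Input level was not tested. Of 82 tested hosts with a member on their own strand, 62 (75.6%) were higher and 12 (14.6%) lower, with a median log2 difference of 3.73. Of 92 tested hosts with no member on an exon, 43 (46.7%) were higher and 30 (32.6%) lower, with a median of 0.27.

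**Figure D4:**
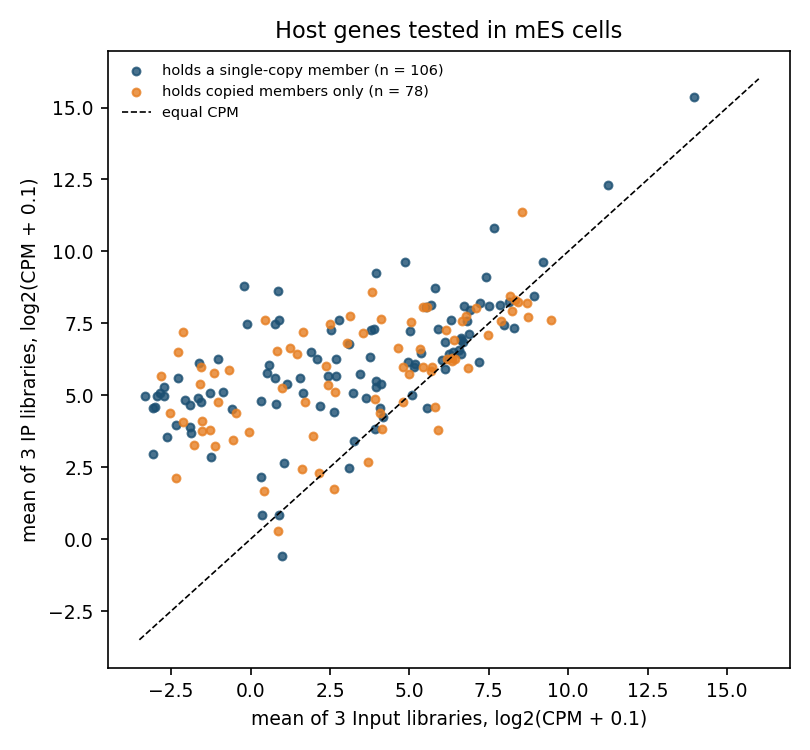
Mean level of each tested host gene in the 3 IP libraries (y axis) against the 3 Input libraries (x axis), both as log2(CPM + 0.1) in mES cells. Points are 106 genes with a single-copy member and 78 with copied members only, and the dashed line marks equal CPM. Most genes of low Input lie well above the line, and the points close in on it as Input rises.

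Genes with several members came first. C130026I21Rik, on chromosome 1, held 9 members, all copied. Its CPM was 150, 240 and 203 in the IP libraries and 0.862, 1.54 and 1.38 in Input, with no overlap between the groups (log2 6.30, SE 0.26, edgeR adjusted p = 3.68e-12). Gm20388, a long transcript model on chromosome 8 that spans other genes, held 7 members, all opposite to its strand and 5 of them also within Def8. It had 1736, 1663 and 2055 CPM in IP and 207, 200.1 and 195 CPM in Input (log2 2.21, SE 0.06). Def8 was listed at 0 in every library, as were nearly all genes nested on the strand of another: 0.156% of 5114 such genes had any Input count, against 60.9% of 4681 genes nested only on the opposite strand. Sfi1 held 6 members and had 218, 204 and 169 CPM in IP against 7.45, 6.72 and 6.19 CPM in Input (log2 3.88, SE 0.16). Gm2619 and Gm26804 held 5 members each, Muc19, which encodes a gel-forming mucin, and Gm26848 4 each. All of these were higher in IP.

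The largest fitted differences belonged to genes with next to no Input. The 6 hosts at the top by the naming rule were Gm26794, Gm2619, AW822073, Gm10849, Gm26888 and 4930519K11Rik. Gm26794 was at 0 in all 3 Input libraries and at 44.4, 23.8 and 25.3 CPM in IP, so no fold is given. AW822073, on chromosome 10, had 59.1, 47.6 and 45.6 CPM in IP and 0.0345, 0 and 0.0863 CPM in Input. The 6 hosts rest on few Input reads, and only Gm2619 and AW822073 among them have copied members alone.

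All 46 hosts called lower in IP had at least 1 CPM in Input, as did 8474 of the 8512 genes called lower among all genes tested. Of the 46 hosts, 30 held no member on an exon of their own, as did 92 of the 184 tested hosts. At the lower end stood Dhodh, an enzyme of pyrimidine synthesis, Tmem245, a transmembrane protein, Krr1, a factor of small ribosomal subunit assembly, and the zinc finger gene Zfp960. Tmem245 had 180, 211 and 192 CPM in IP and 713, 709 and 710.2 CPM in Input, without overlap (log2 -2.84, SE 0.08, edgeR adjusted p = 6.53e-14). Dhodh had 4.22, 18.7 and 18.6 CPM in IP against 58.2, 60.1 and 61.9 CPM in Input (log2 -3.02, SE 0.28). The members in these 4 genes were copied sequence in introns, recorded on the strand opposite to the gene.

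The most counted hosts were Gm26917, Gm42418, Tmem245, Mad1l1, a protein of the spindle checkpoint, and Adk, adenosine kinase, by CPM not divided by length. Gm26917, in the ribosomal RNA segment, held 6 members, 3 on each strand. Its mean CPM was 42217 in IP and 15822 in Input, or 2.67 times as high, with no overlap (log2 0.44 after scaling, SE 0.04). Without the filter on low counts that log2 difference was 0.0025 and did not pass the test. Gm42418 reached 5169, 4926 and 5088 CPM in IP and 2598, 2319 and 2345 CPM in Input, yet its scaled log2 difference of 0.09 (SE 0.04) did not pass the test (edgeR adjusted p = 0.0539). It passed with RLE factors or DESeq2 (0.26 each), with library totals (1.10) and in most fits without one library. Such values depend on the scaling: with library totals alone the median of all genes was 0.83 and with trimmed means -0.17. Mad1l1 had 699, 786 and 880 CPM in IP and 583, 583 and 595 CPM in Input, and was lower after scaling (log2 -0.54) but higher with library totals alone (0.47).

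Host genes together took 7.18% ± 0.0987 (SD, n = 3) of gene counts in mESC IP and 2.87% ± 0.144 (SD, n = 3) in Input, with no overlap. An exact two-sided permutation test gave p = 0.1, the smallest that 3 against 3 libraries allow. Hosts were chosen by peaks of these IP libraries, so a higher IP share was built in and the test adds no support. Without Gm26917 and Gm42418 the shares were 2.45% and 1.04%. Those 2 genes made up most of the host counts in both kinds of library.

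Imprinted hosts moved in both directions. Airn, the antisense RNA that starts within Igf2r, had 65.5, 90.1 and 84.4 CPM in IP and 12.6, 13.4 and 13.96 CPM in Input (log2 1.63, SE 0.19). Igf2r, the receptor that it overlaps, had 63.4, 66.3 and 49.0 CPM in IP and 70.4, 66.1 and 71.2 CPM in Input, where the groups overlapped (log2 -1.20, SE 0.17). Both contain the same member of 156 bases with 14 CpG, which is on the strand of Airn. Gnas, the alpha subunit of a stimulatory G protein, had a coding exon member on its own strand and 133, 196 and 142 CPM in IP against 56.5, 61.4 and 62.5 CPM in Input (log2 0.42, SE 0.15, edgeR adjusted p = 0.0166). That call was lost when IP replicate 2 or any one Input library was left out of the same set of genes, with log2 differences of 0.25 without IP replicate 2 and 0.36 to 0.45 without an Input library. The direction of Igf2r turned when Input was thinned to the IP depth (0.18).

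Other hosts on the fixed lists included noncoding and zinc finger genes. Gm23935, annotated as a miRNA, had 2638, 2569 and 2669 CPM in IP and 402, 358 and 361 CPM in Input (log2 1.84, SE 0.05). Rmrp and the U3 entries were listed at 0 in every library, and each of these names has a pair of overlapping annotations. The protein-coding zinc finger gene Zfp853 had 82.4, 68.0 and 77.7 CPM in IP against 0.517, 0.333 and 0.317 CPM in Input (log2 6.62, SE 0.39).

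K562 libraries took no part in choosing the members, so the human genes with the symbols of the hosts could be tested in them. Symbols in capitals matched 144 of the 253 hosts, and 85 passed the filter. Higher in IP were 19 (22.4%) and lower were 14 (16.5%), against 15.1% and 16.4% of all 14522 genes. The difference from the background was not tested, and without any one Input library, where the filter kept fewer genes, 7 of 38 hosts (18.4%) were higher, against 694 of 3722 to 721 of 3721 genes. Among genes of at least 1 CPM in K562 Input, 15 of 81 hosts (18.5%) were higher and 14 (17.3%) lower, against 11.8% and 17.1% of all such genes. This split does not remove every call that depends on the filter. The 15 include ELFN1, CACNB2 and MTUS2, at 1.32, 1.41 and 1.56 CPM in Input, which also passed the filter largely through IP counts. Under 1 CPM, all 4 hosts were higher, as were 100% of the 545 genes tested (0% were lower), since such genes pass the filter only through the IP libraries. The median log2 difference was -0.04 for the matched hosts and -0.16 for all genes. Hosts with a member on their own strand gave 11 higher and 7 lower of 31 (35.5% and 22.6%). Host counts took 0.999% ± 0.0411 (SD, n = 3) of K562 IP and 0.935% ± 0.00597 (SD, n = 3) of K562 Input, without overlap (exact two-sided permutation p = 0.1, the smallest possible).

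SCNN1A, ELFN1 and ADAMTS2 stood at the top of the K562 hosts and were also higher in IP in mES cells. SCNN1A, the alpha subunit of the epithelial sodium channel, had 46.3, 17.97 and 32.2 CPM in IP and 0.506, 0.173 and 0.573 CPM in Input (log2 5.99, SE 0.74). In mES cells Scnn1a had 27.5, 30.6 and 20.3 CPM in IP and 1.65, 1.97 and 1.27 CPM in Input (log2 3.02, SE 0.38). ELFN1, a synaptic adhesion protein, had a log2 difference of 5.50 (SE 0.52) in K562 and Elfn1 5.83 (SE 0.23) in mES cells. ADAMTS2, a procollagen peptidase, had 5.31 (SE 0.72) and Adamts2 3.64 (SE 0.23). The K562 IP libraries held only 93110 to 111286 gene counts each, so the K562 IP values of these 3 genes rest on few reads. All 3 genes were under 2 CPM in K562 Input, so that they too passed the filter largely through their IP counts, and the single-copy member of each mouse gene lay on an exon, coding for Scnn1a, noncoding for Elfn1 and untranslated for Adamts2.

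RALGPS2, SENP7 and TMEM245 stood at the lower end in K562. SENP7, a SUMO protease, had 111, 80.9 and 85.9 CPM in IP and 201.2, 207 and 201.2 CPM in Input (log2 -1.34, SE 0.23). TMEM245 had a log2 difference of -0.99 (SE 0.19) and Tmem245 -2.84 in mES cells. Over the 82 genes tested in both cells, 15 were called higher in both, 10 lower in both and 5 in opposite directions. The same counts were not made over all genes matched by symbol, so they cannot be set against a background.

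**Figure D5:**
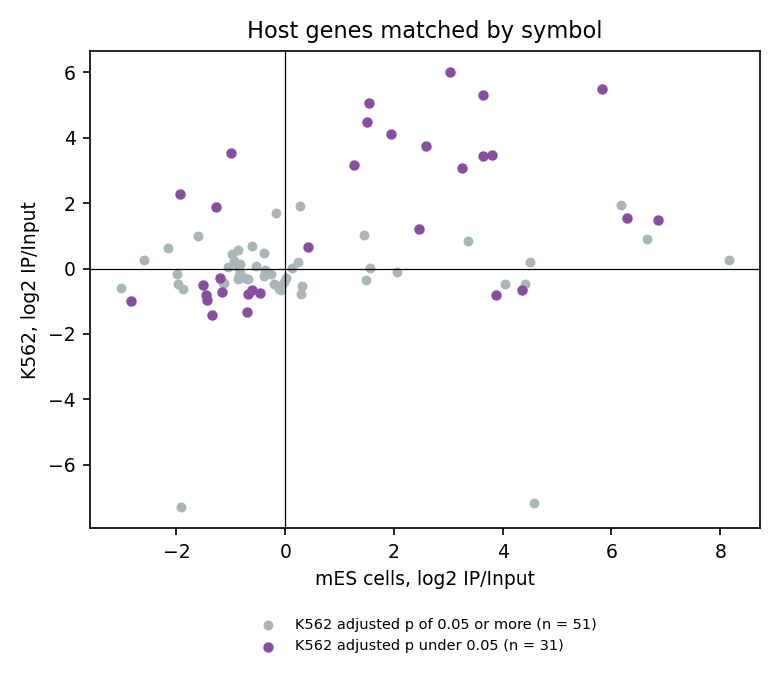
Fitted log2 IP/Input in K562 (y axis) against mES cells (x axis) for the 82 host genes tested in both, matched by symbol. Purple points passed edgeR at an adjusted p under 0.05 in K562 (n = 31) and grey ones did not (n = 51). The genes highest in K562 are also above 0 in mES cells, and 5 genes were called in opposite directions.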

How the data were processed

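m5C immunoprecipitates and Input of chromatin-associated RNA were sequenced by the authors from mES cells and K562 cells (SMARTer Stranded Pico kit). Per the submitters' processing notes and the study's methods, Trimmomatic 0.39 trimmed the reads, HISAT2 2.1.0 and SAMtools 1.16.1 served for alignment, and peaks were called with MACS2 for each strand. The deposited peak lists give positions and strand, and were used for the regions. The deposited gene counts are raw counts of uniquely aligned reads per gene, used as deposited. The study names GENCODE M19, whereas M21 and 44 were used here for names and classes.

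The members and lists were chosen with earlier results of these data known. Groups followed the titles. IP was compared with Input by edgeR 4.0.16 (filterByExpr, trimmed-mean scaling, quasi-likelihood test, Benjamini-Hochberg threshold 0.05). Values in CPM divide a count by the library's gene total. Lines that name no gene (no feature, ambiguous, not uniquely aligned) stayed out of totals and tests. Named hosts were those with 3 or more members (up to 10), the 6 highest and 4 lowest log2 differences among called hosts that averaged 5 CPM or more and whose groups did not overlap, the 5 highest Input means, all hosts on fixed lists and, in K562, the 3 at each end. Any host named beyond these was chosen after its values were seen. A host that the rule names is not reported here.

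Alternatives were RLE or library size scaling, DESeq2 1.42.0, no filter, thinned Input, a replicate block, each library left out, other region rules and single-copy members. On simulated counts with 20244 mESC genes, 34% of 2-fold and 59% of 4-fold changes were recovered. With 14522 K562 genes, 15% and 50% were.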

Additional observations from a re-analysis of the deposited data

Results flagged for a closer look

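Of 30 matched hosts called in both cells, 5 were called in opposite directions, and in 2 of these the libraries did not overlap in either cell. Eef2, the elongation factor that moves the ribosome along mRNA, was lower in mES cell IP (log2 -1.94) and EEF2 was higher in K562 IP (log2 2.27). Its CPM was 165, 128 and 194 in mESC IP and 317, 315 and 319 in mESC Input, against 500.3, 485 and 730.3 in K562 IP and 102, 103 and 99.0 in K562 Input. Sox5, a transcription factor of the SoxD group, was higher in mES cell IP (log2 4.36) and SOX5 was lower in K562 IP (log2 -0.64). Its CPM was 602, 600.3 and 645 in mESC IP and 14.5, 15.8 and 15.4 in mESC Input, against 120.4, 189 and 129 in K562 IP and 204, 195 and 199 in K562 Input. The difference between the cells was not tested, and the genes were matched by symbol only. How often other matched genes were called in opposite directions was not counted.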

How the results depend on the processing

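The number of shared regions outside repeats (384) followed the rule. It was 1630 with peaks of at least 2 replicates, 718 to 963 without one replicate, 215 with under 10% lower-case bases and 144 without copied members. The share on an exon (37.2%) was 44.7% with under 10% lower-case bases, 19.5% with exons on the recorded strand only and 45.8% without copied members, for which the gene strand share (50.8%) was 41.8%. Median GC (55.7%) was 54.7% with at least 2 replicates, 55.0 to 55.4% without one replicate, 57.2% with under 10% lower-case bases and 56.6% without copied members.

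The share of mESC hosts called lower (25%) was 6.52% with library size scaling, 3.52% with Input thinned to IP depth, 14.6% for hosts on the recorded strand and 9.03 to 27.2% with one library left out. The low values came without an Input library, where the filter kept fewer genes (12280 to 12292). The share of K562 hosts called higher (22.4%) was 35.5% for hosts on the recorded strand. The share called lower (16.5%) was 5.88% with library size scaling or thinned Input, 9.41% with DESeq2 or with K562 Input summed into 1 library, and 7.89 to 18.4% with one library left out. The host share of mESC gene counts exceeded Input by 4.31 percentage points, by 3.85 on the recorded strand, 3.80 for hosts of single-copy members and 1.41 without Gm26917 and Gm42418. Hosts of single-copy members still include Gm26917 and Gm42418, since no member of the ribosomal RNA segment was scored as copied. The cause of these shifts was not tested.

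Of 53 named genes with a fit, 37 kept their call under every alternative run. The log2 difference turned sign for Gm26624 (0.27 with library size scaling, 0.56 with thinned Input), Mad1l1 (0.47 and 0.76; -0.59 to 0.15 with one library left out, above 0 without an Input library), Senp7 (0.30 and 0.68), Gm37245 (0.11, thinned), Igf2r (0.18, thinned) and Gnas (-0.020 without a filter). RALGPS2 in K562 lost its call with RLE factors or DESeq2 (-1.31 each), library size scaling (-1.16), K562 Input summed (-1.44), and without IP replicate 2 (-1.20) or IP replicate 3 (-1.33). Gm42418 passed the test with RLE factors or DESeq2 (0.26 each), library size scaling (1.10), thinned Input (1.38), without any one Input library after filtering anew (0.74 to 0.83) and, on the same set of genes, without any one IP library (0.12 to 0.14). Gm26917 lost its call without a filter (0.0025).

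Samples with the same replicate number deviated together only weakly (correlations of 0.0168 to 0.0263 in mES cells and -0.0066 to 0.0207 in K562), so the numbers were not taken to pair them. In mES cells each library correlated best with its own number, a hint from the data and not from the design. With the replicate number as a block, 53.8% of mESC hosts were higher and 23.9% lower, and 21.2% and 14.1% in K562. Under the block Gnas (0.40) and RALGPS2 (-1.43) lost their calls and CT010467.1 (0.45) gained one. The 4 settings that sum K562 Input, leave out copied members, keep hosts of single-copy members or leave out Gm26917 and Gm42418 were chosen after seeing the data. In simulated K562 counts, 15% of 2-fold changes were recovered.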
